A study of Mus musculus with 18 samples.

Results

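The 39 mouse *Hox* genes were followed through 18 RNA-seq libraries of C3H/10T1/2 cells, a mouse mesenchymal progenitor line (MPCs). Members were all genes whose Entrez identifier maps to *Hoxa*, *Hoxb*, *Hoxc* or *Hoxd* with a position number from 1 to 13, and antisense transcripts of the clusters were left out. All 39 had a row among the 24100 genes of both count tables. There were 11 genes in HoxA, 10 in HoxB, 9 in HoxC and 9 in HoxD.

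*Hox* genes encode homeodomain transcription factors that give cells their position along the body axis. They lie in clusters on separate chromosomes, genes of like position number are paralogs of each other, and low numbers are generally used towards the head and high numbers towards the tail and limb tips. Polycomb proteins keep clusters silent, Trithorax proteins keep them active, and fibroblasts and other mesenchymal cells hold a position-dependent *Hox* pattern in culture.

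The study compared 3 lines grown under normal conditions without differentiation cues. *Atrx* WT was the isogenic control, transfected with the Cas9 vector lacking an sgRNA. *Atrx* KO sg5 (clone G7) and *Atrx* KO sg6 (clone B10) were each a single clone grown from 1 sorted GFP-positive cell after transient transfection with Cas9 and an sgRNA against *Atrx*, which encodes a chromatin remodeler. Each line had 3 polyA-selected and 3 rRNA-depleted libraries, so n = 3 counts libraries of one line and not independent knockouts, and the p-values measure the spread between these libraries, which may be technical. A difference between a clone and WT cannot be told apart from any other difference between single lines, and both clones were compared with the same WT libraries. Fewer expressing cells and less RNA per cell cannot be told apart in these bulk samples.

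Library totals ran from 27544833 to 235346363 counts in polyA, with the 3 sg5 libraries the deepest (161036799 or more), and from 20135336 to 33187136 in the rRNA-depleted libraries. *Atrx* RNA itself was lower in both clones in polyA, at 300.3 ± 26.0 CPM (counts scaled by library size; SD, n = 3) in WT against 127 ± 12.2 for sg5 and 131 ± 9.68 for sg6 (log2 fold changes -1.24 and -1.20). All 10 mesenchymal markers had counts in each line. In polyA they summed to 17608 to 19611 CPM for WT, 19052 to 20079 CPM for sg5 and 23609 to 26422 CPM for sg6. The largest parts in WT were *Col1a2* (6229 CPM), *Col1a1* (5719 CPM) and *Vim* (4900 CPM). *Nt5e* was low, at 0.230 ± 0.146 CPM in WT and 0.221 ± 0.0722 for sg5. *Thy1* stood apart between the clones, at 0.997 ± 0.168 CPM in WT, 0.307 ± 0.0619 for sg5 and 134 ± 17.99 for sg6. *Eng* was called higher in both clones, in sg5 from 19.8 ± 2.32 to 89.1 ± 5.55 CPM (log2 fold change 2.17, edgeR adjusted p = 4.79e-06). No other mesenchymal marker was called in polyA. The 3 blood markers summed to at most 0.0699 CPM and the 3 neural markers to 3.43 to 4.53 CPM. The 3 endothelial markers summed to 0.454 to 0.767 CPM for WT, 0.341 to 0.543 CPM for sg5 and 0.37 to 0.482 CPM for sg6, none of them at 0 in a line. Of the 2 tested, *Pecam1* was called lower in sg5 (-1.37 on the log2 scale, adjusted p = 0.0113) and in sg6 (-1.22, adjusted p = 0.0269). The 3 pluripotency markers summed to 0.71 to 1.36 CPM, with *Sox2* at 0 in each line. The 4 epithelial markers summed to 2.76 to 5.03 CPM for WT, 0.89 to 1.71 CPM for sg5 and 0.34 to 0.723 CPM for sg6, with *Krt18* at 0 in WT and sg6. Of the 2 tested, *Cdh1* was called lower in both clones and *Krt8* in sg5. *Pecam1*, *Cdh1* and, in sg5, *Krt8* moved in the direction of the *Hox* genes called lower below, and their part in those results was not tested.

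A *Hox* gene was called higher or lower when its log2 fold change passed 1 in either direction with an adjusted p below 0.05, in edgeR's quasi-likelihood test with Benjamini-Hochberg adjustment over all features. In polyA, 22 of the 39 had enough reads to be tested, namely 9 in HoxA, 5 in HoxB, 7 in HoxC and *Hoxd9*. Of these, 6 passed the filter on low counts through the WT libraries alone (*Hoxb3*, *Hoxb5*, *Hoxb6*, *Hoxc5*, *Hoxc6* and *Hoxc9*). *Hoxc4* and *Hoxc10* also needed the WT libraries, since only 2 and 1 sg6 libraries and no sg5 library reached the 0.139 CPM asked of 3. All of these genes were tested because WT expressed them, so a lower level in the clones was built into their testing. Of the 17 untested genes, 6 were at 0 counts in all 9 libraries (*Hoxb2*, *Hoxd1*, *Hoxd3*, *Hoxd8*, *Hoxd12* and *Hoxd13*). The others stayed at or under 0.129 CPM in every library. A count of 0 only places a gene below 3 counts, which is 0.0131 to 0.105 CPM depending on the library, and it covers counting error only.

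Paralogs in HoxA, HoxB and HoxC did not move alike, and their sequences show how far reads can separate them. The homeobox, the 180 bases that encode the 60 residues of the homeodomain, is the most alike stretch. Its coding sequence is given 5′ to 3′ from GENCODE transcripts of GRCm38 for *Hoxa4* and *Hoxc4*, a pair of paralogs that moved in opposite directions in both clones. Capitals mark bases of *Hoxc4* that differ from *Hoxa4*.
Hoxa4: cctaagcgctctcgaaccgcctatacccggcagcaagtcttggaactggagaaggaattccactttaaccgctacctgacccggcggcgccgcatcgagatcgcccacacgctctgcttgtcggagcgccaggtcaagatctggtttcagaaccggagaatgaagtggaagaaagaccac
Hoxc4: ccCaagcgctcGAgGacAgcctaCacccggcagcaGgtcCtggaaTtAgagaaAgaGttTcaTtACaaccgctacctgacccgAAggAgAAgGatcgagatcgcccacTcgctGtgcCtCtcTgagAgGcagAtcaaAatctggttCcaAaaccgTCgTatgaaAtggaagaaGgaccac

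The homeobox of *Hoxc4* was 78.89% identical to that of *Hoxa4*, with 38 bases and 3 residues differing. Over whole genes, none of the 31-base words of *Hoxa4*, *Hoxc4* and *Hoxc6* occurred in another *Hox* gene. *Hoxc5* and *Hoxc10* share an exon on the same strand and had 4.545% and 7.344% of their words in common with another *Hox* gene, so reads could be split between these 2. The longest identical run between 2 homeoboxes was 52 bases, in *Hoxb4* and *Hoxa6*. Of their words, 0.874% and 3.318% occurred in another *Hox* gene, so some of their reads could also be split. *Hoxb3* is the member most exposed to an antisense partner, since 52.93% of its exonic bases lie opposite *Hoxb3os*, which had no row in either table. The strand setting of the counting is not given in the sources used here.

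In WT the HoxA cluster (chromosome 6 in GRCm38, the build UCSC names mm10) carried most of the *Hox* RNA. Levels between genes are compared as CPM per kb of exon. In polyA, HoxA summed to 44.6 ± 3.31 CPM per kb (SD, n = 3), HoxC to 3.12 ± 0.874, HoxB to 1.57 ± 0.332 and HoxD to 0.259 ± 0.0443. HoxA thus made up 88.2 to 90.9% of the *Hox* level per kb in the WT libraries, 95.5 to 97.6% in sg5 and 94.3 to 96.4% in sg6. In polyA the WT range overlaps neither clone. With rRNA depletion this held for sg5 only, whose HoxA share was at least 99.1% while WT reached at most 97.4%. The sg6 share there had a minimum of 95.4% and a maximum of 99.1%, so it spanned WT (minimum 96.2%). Mean HoxC was also higher for sg6 there, at 0.742 ± 0.490 CPM per kb against 0.383 ± 0.172 for WT, with overlapping libraries. The sg5 mean was 0.0679 ± 0.0606.

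**Figure D1:**
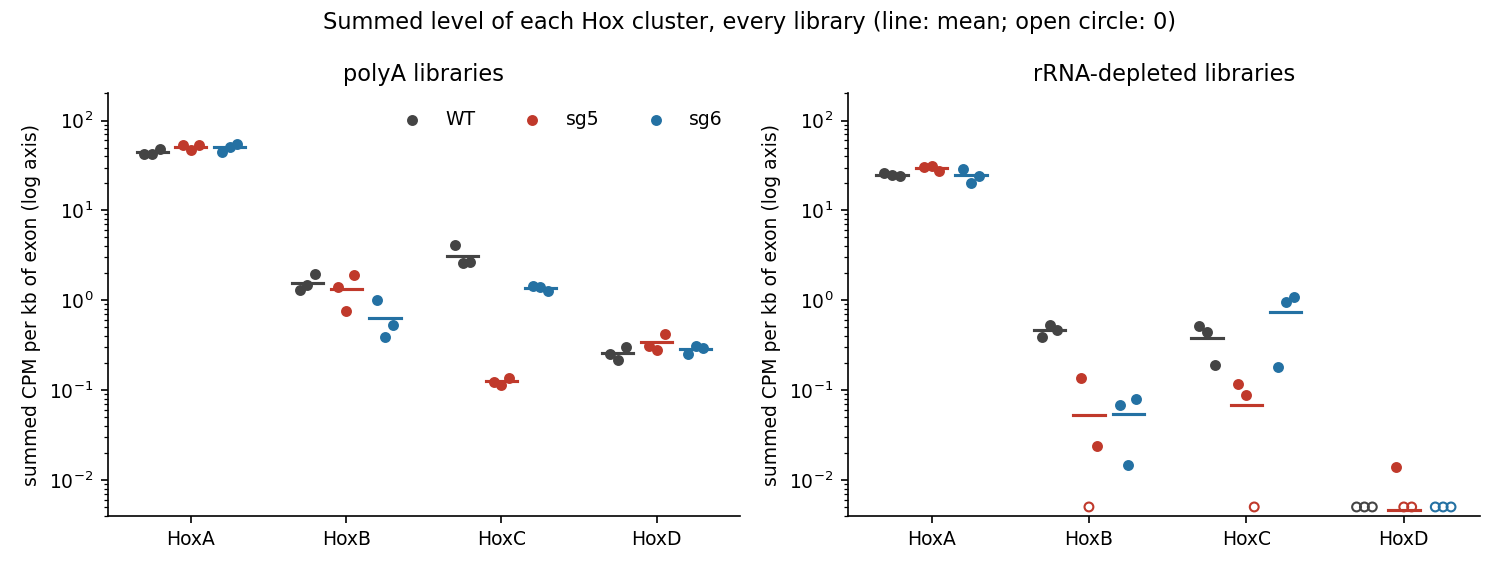
Summed level of each *Hox* cluster in CPM per kb of exon (log axis), for polyA (left) and rRNA-depleted (right) libraries. Points are libraries, lines are means over 3 libraries, and open circles at the lower edge are sums of 0. HoxC in polyA runs from 2.58 to 4.13 in WT, from 0.115 to 0.137 in sg5 and from 1.25 to 1.46 in sg6, while HoxA lies between 42.5 and 55.0 in all 9 libraries.

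The highest gene per kb was *Hoxa2*, known for patterning the hindbrain and branchial arches, at 15.004 ± 1.13 CPM per kb in WT. *Hoxa5* followed at 7.34 ± 0.577 and *Hoxa7* at 6.31 ± 0.757, which lie within 1 SD of each other. *Hoxa3* (4.32), *Hoxa10* (4.02), *Hoxa6* (3.40) and *Hoxa4* (2.65) came next and each overlapped its neighbour within 1 SD. The highest HoxC gene was *Hoxc6* at 1.21 ± 0.318, the highest HoxB gene *Hoxb6* at 0.497 ± 0.154 and the highest HoxD gene *Hoxd9* at 0.228 CPM per kb.

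The genes called lower in both clones lay in HoxB and HoxC, and the gene called higher lay in HoxA. In sg5, 9 *Hox* genes were called lower and 1 higher, against 6.96% of all 15480 genes tested called lower and 3.18% higher. In sg6, 11 were called lower and 1 higher, against backgrounds of 7.54% and 3.64%. In both clones, 8 were called lower (background 5.48%), namely *Hoxb3*, *Hoxb5*, *Hoxb6*, *Hoxc4*, *Hoxc5*, *Hoxc6*, *Hoxc9* and *Hoxc10*, and *Hoxa4* alone was called higher (background 2.18%). The median log2 fold change over the 22 tested genes was -0.69 in sg5 and -0.84 in sg6, beside -0.0024 and -0.0061 over all genes tested. *Hoxc5* in sg5 and *Hoxb6* in sg6, at 0 counts, stay below the *Hox* medians when placed at their bound, so that change could not move the medians. All 8 genes called lower in both clones were tested only because WT expressed them. These counts and medians thus describe the tested genes and not the clusters as a whole. Summed over all 39 genes, *Hox* RNA in polyA was not lower in the clones. It was 121 ± 8.56 CPM in WT, 136 ± 13.4 for sg5 and 136 ± 9.45 for sg6 (SD, n = 3).

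**Figure D2:**
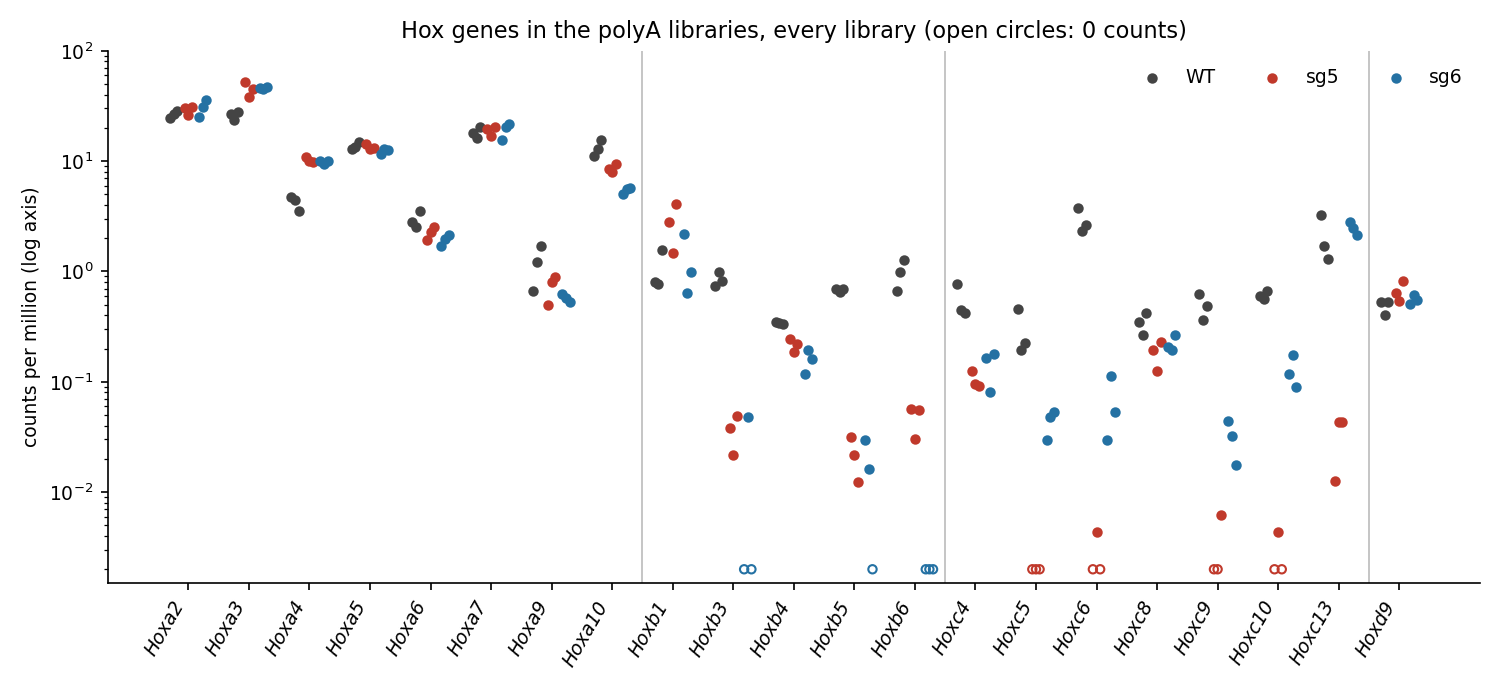
Level of 21 *Hox* genes tested in polyA, in CPM on a log axis, with 1 point per library and genes ordered by cluster and position number. Open circles at the lower edge are libraries at 0 counts. The lines lie closer together for HoxA genes than for *Hoxc6*, though not all HoxA genes overlap. *Hoxa4* sits at 3.51 to 4.75 CPM in WT and at 9.32 to 10.9 CPM in the clones. *Hoxc6* sits at 2.31 to 3.77 CPM in WT and at most 0.112 CPM in every clone library.

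By cluster, HoxC had 6 of its 9 genes called lower in sg5 and 5 in sg6, HoxB had 3 and 4 of its 10, HoxA had 0 and 2 of its 11, and HoxD had none called by edgeR. *Hoxd9*, the only HoxD gene tested, was at 0.486 ± 0.0743 CPM in WT, 0.668 ± 0.140 for sg5 and 0.555 ± 0.0539 for sg6. Its log2 fold change was 0.48 ± 0.23 in sg5 (SE, adjusted p = 0.151), and sg6 gave 0.22 ± 0.24 (adjusted p = 0.536). By position, 1 of the 5 tested among the 8 anterior genes (numbers 1 to 3) was called lower in each clone. Of the 11 tested among the 15 central genes (4 to 8), 5 were called lower in sg5 and 6 in sg6, and of the 6 tested among the 16 posterior genes (9 to 13), 3 in sg5 and 4 in sg6. Each of the 3 position groups thus held calls in both clones.

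**Figure D3:**
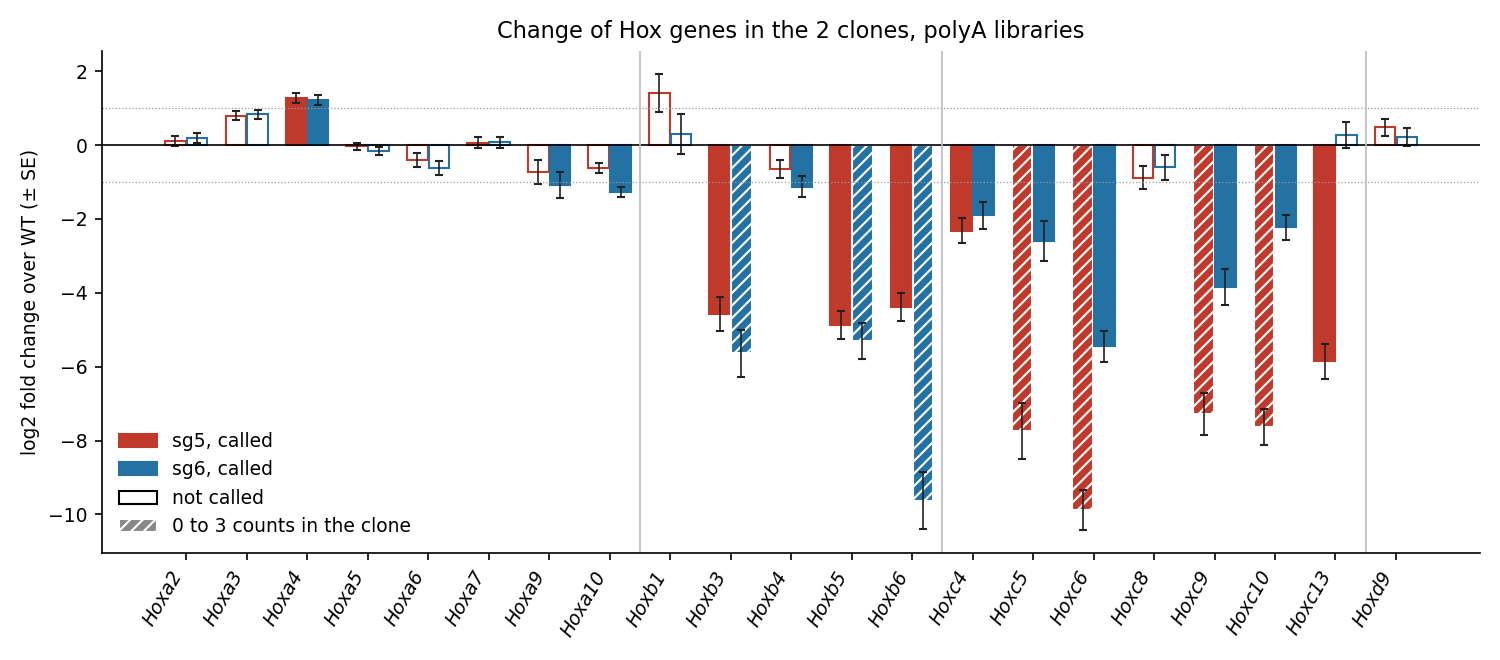
log2 fold change over WT (± SE) of 21 tested *Hox* genes in sg5 (red) and sg6 (blue), polyA libraries; filled bars passed the threshold, open bars did not, dotted lines mark a log2 fold change of 1 in either direction, and hatched bars belong to genes with 0 to 3 counts in that clone, whose fitted size depends on the prior count. *Hoxa4* is the only filled pair above 0 and *Hoxc13* is filled in sg5 alone.

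*Hoxc6*, a gene of the thoracic region, had the highest WT level per kb among the genes called lower in both clones. It measured 3.77, 2.31 and 2.65 CPM in the WT libraries. In sg5 it gave 1 count over the 3 libraries against 429 in WT, which is a pooled ratio of 1465-fold (exact 95% counting interval 262 to 57995). In sg6 it measured 0.0296, 0.112 and 0.0533 CPM, a log2 fold change of -5.45 ± 0.42 (SE, adjusted p = 3.04e-05). Each clone library lay below each WT library.

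*Hoxc10*, a posterior gene used in hindlimb, was also called lower in both clones. WT libraries held 0.594, 0.561 and 0.667 CPM. sg5 had 1 count in all, a pooled ratio of 328-fold below WT (57.5 to 13081). The sg6 libraries held 0.118, 0.177 and 0.0888 CPM, with a log2 fold change of -2.22 ± 0.34 (adjusted p = 0.0012). No clone library reached the lowest WT library.

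*Hoxc9*, whose protein patterns the thoracic spinal cord, measured 0.629, 0.366 and 0.489 CPM in WT. sg5 had 1 count in all against 72 in WT, a pooled ratio of 246-fold (42.7 to 9844). sg6 measured 0.0444, 0.0321 and 0.0178 CPM, a log2 fold change of -3.84 ± 0.49 (adjusted p = 0.000497). The sg6 libraries held 1 to 3 counts each, so this fitted size rests on few reads.

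*Hoxc5*, which overlaps an exon of *Hoxc10*, had the lowest WT level per kb of the called HoxC genes, and measured 0.454, 0.195 and 0.222 CPM in WT. It had 0 counts in the 3 sg5 libraries, which puts it at least 17.2-fold below WT when set against 3 counts per library. In sg6 it measured 0.0296, 0.0482 and 0.0533 CPM, a log2 fold change of -2.59 ± 0.53 (adjusted p = 0.00967).

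*Hoxc4*, the most anterior HoxC gene of mouse, fell by less. It measured 0.768, 0.446 and 0.423 CPM in WT, 0.126, 0.096 and 0.0925 for sg5 and 0.163, 0.0803 and 0.178 for sg6. The log2 fold changes were -2.32 ± 0.34 (adjusted p = 0.00116) and -1.90 ± 0.37 (adjusted p = 0.00441), and neither clone overlapped WT. *Hoxc8*, between *Hoxc6* and *Hoxc9* in the cluster, did not pass the threshold, at -0.89 ± 0.31 on the log2 scale for sg5 (adjusted p = 0.0622) and -0.60 ± 0.33 for sg6 (adjusted p = 0.209).

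In HoxB, *Hoxb3*, *Hoxb5* and *Hoxb6* fell close to the detection limit in both clones. *Hoxb3*, an anterior gene, measured 0.734, 0.995 and 0.823 CPM in WT and 0.0379, 0.0218 and 0.0493 in sg5, a log2 fold change of -4.57 ± 0.46 (adjusted p = 0.00016). In sg6 it had 3 counts in 1 library and 0 in the other two, a pooled ratio of 55.9-fold below WT (18.7 to 274). *Hoxb5* measured 0.699, 0.652 and 0.689 CPM in WT and 0.0316, 0.0218 and 0.0123 in sg5, a log2 fold change of -4.88 ± 0.38 (adjusted p = 3.53e-05). Its 3 counts in sg6 gave a pooled ratio of 41.6-fold (13.9 to 205).

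*Hoxb6*, the HoxB gene with the highest WT level per kb, measured 0.664, 0.995 and 1.27 CPM in WT. In sg5 it measured 0.0568, 0.0305 and 0.0555 CPM, a log2 fold change of -4.38 ± 0.37 (adjusted p = 0.000215). In sg6 it had 0 counts in each library, at least 20.1-fold below WT. In the same cluster, *Hoxb4* went from 0.342 ± 0.00794 CPM in WT to 0.219 ± 0.0295 for sg5 and 0.157 ± 0.0373 for sg6, and was called lower in sg6 only (log2 fold change -1.12 ± 0.27, adjusted p = 0.0133; sg5 -0.65 ± 0.24, adjusted p = 0.0719).

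*Hoxb1*, the HoxB gene at the 3′ end of the cluster and a hindbrain gene, was the HoxB gene whose mean was above WT in both clones. It measured 0.803, 0.767 and 1.56 CPM in WT, 2.83, 1.46 and 4.05 for sg5 and 2.19, 0.643 and 0.994 for sg6. The groups overlapped and neither log2 fold change passed the threshold (1.42 ± 0.52, adjusted p = 0.073, in sg5; 0.30 ± 0.53, adjusted p = 0.71, in sg6). DESeq2 called it higher in sg5 (1.41, adjusted p = 0.0231). It was at 0 counts in all 9 rRNA-depleted libraries.

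*Hoxa4*, the HoxA paralog of *Hoxb4* and *Hoxc4*, was the single *Hox* gene called higher. WT libraries measured 4.75, 4.42 and 3.51 CPM, sg5 libraries 10.9, 10.1 and 9.86, and sg6 libraries 10.1, 9.32 and 10.0. The log2 fold changes were 1.29 ± 0.13 (adjusted p = 0.000164) and 1.22 ± 0.13 (adjusted p = 0.000202), and every clone library lay above every WT library. The call rests on a test against 0: against a log2 fold change of 1, with edgeR's glmTreat, *Hoxa4* was not called in either clone. An opposite-strand transcript, Gm29430, overlaps part of its exons.

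*Hoxa3*, the next gene towards the 3′ end, changed in the same direction under the fold limit. It measured 26.6, 23.5 and 27.8 CPM in WT, 52.3, 38.1 and 44.9 for sg5 and 46.3, 44.7 and 47.4 for sg6. The log2 fold change was 0.80 ± 0.12 in sg5 (adjusted p = 0.00128), and 0.83 ± 0.12 for sg6 (adjusted p = 0.000903). Opposite-strand transcripts, among them *Hoxaas2*, cover 25.42% of the exonic bases of *Hoxa3*. *Hoxa2* did not pass the threshold, at 26.6 ± 2.00 CPM in WT, 28.9 ± 2.61 for sg5 and 30.7 ± 5.49 for sg6 (log2 fold changes 0.12 ± 0.13, adjusted p = 0.558, and 0.20 ± 0.14, adjusted p = 0.293). *Hoxa5* and *Hoxa7* also did not pass, at log2 fold changes between -0.16 and 0.08.

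At the 5′ end of HoxA, *Hoxa10*, a gene of limb and uterus patterning, was called lower in sg6 alone. It measured 11.1, 12.8 and 15.5 CPM in WT, 8.47, 7.91 and 9.35 for sg5 and 5.06, 5.64 and 5.75 for sg6. The log2 fold change was -1.26 ± 0.14 (adjusted p = 0.00026) in sg6 and -0.62 ± 0.14 (adjusted p = 0.011) in sg5, so it passed the adjusted p but not the fold limit there, and the 3 lines did not overlap. *Hoxa9* was called lower in sg6 (log2 fold change -1.07 ± 0.35, adjusted p = 0.0428) and not in sg5 (-0.74 ± 0.32, adjusted p = 0.126), and its sg6 call was lost in 7 of the 9 fits that left out 1 library, with only the 2 groups compared (adjusted p = 0.0525), with glmTreat and after thinning (-0.79, adjusted p = 0.162). *Hoxa11* and *Hoxa13*, the last genes of the cluster, had at most 1 count in any polyA library.

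Every edgeR call between the clones lay in HoxC. Between sg5 and sg6, 4 *Hox* genes were called lower in sg5 and 0 higher, against 1.25% and 1.36% of all genes. At an unadjusted p below 0.05 edgeR gave 2 higher, and DESeq2 called 1 higher, *Hoxb6*. The 4 were *Hoxc5*, *Hoxc6*, *Hoxc10* and *Hoxc13*. For *Hoxc6* the 12 counts of sg6 against 1 in sg5 gave a pooled ratio of 35.4-fold (5.24 to 1515), and for *Hoxc10* the 24 counts against 1 gave 70.9-fold (11.6 to 2915). For *Hoxc5* the sg6 libraries held 2, 3 and 3 counts, at or under the floor, so no fold is given and its edgeR call between the clones (adjusted p = 0.0378) was lost in 8 of the 9 fits that left out 1 library. The call of *Hoxc6* (adjusted p = 0.0201) was lost without any of the 3 sg5 libraries and without sg6 replicate 2.

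*Hoxc13*, the last gene of the cluster and a regulator of hair and nail keratins, kept its call between the clones in all 9 fits that left out 1 library. It measured 3.25, 1.72 and 1.29 CPM in WT, 0.0126, 0.0436 and 0.0432 for sg5 and 2.78, 2.46 and 2.13 for sg6. It fell in sg5 (log2 fold change -5.85 ± 0.47, adjusted p = 4.15e-05) and not in sg6 (0.27 ± 0.35, adjusted p = 0.601), and the difference between the clones was -6.12 ± 0.47 (adjusted p = 9.89e-05). WT and sg6 overlapped, and sg5 lay below both. Its untested neighbour *Hoxc12* had 17 counts in WT, 1 in sg5 and 19 in sg6, a pooled ratio of 56.1-fold between sg6 and sg5 (8.92 to 2332).

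**Figure D4:**
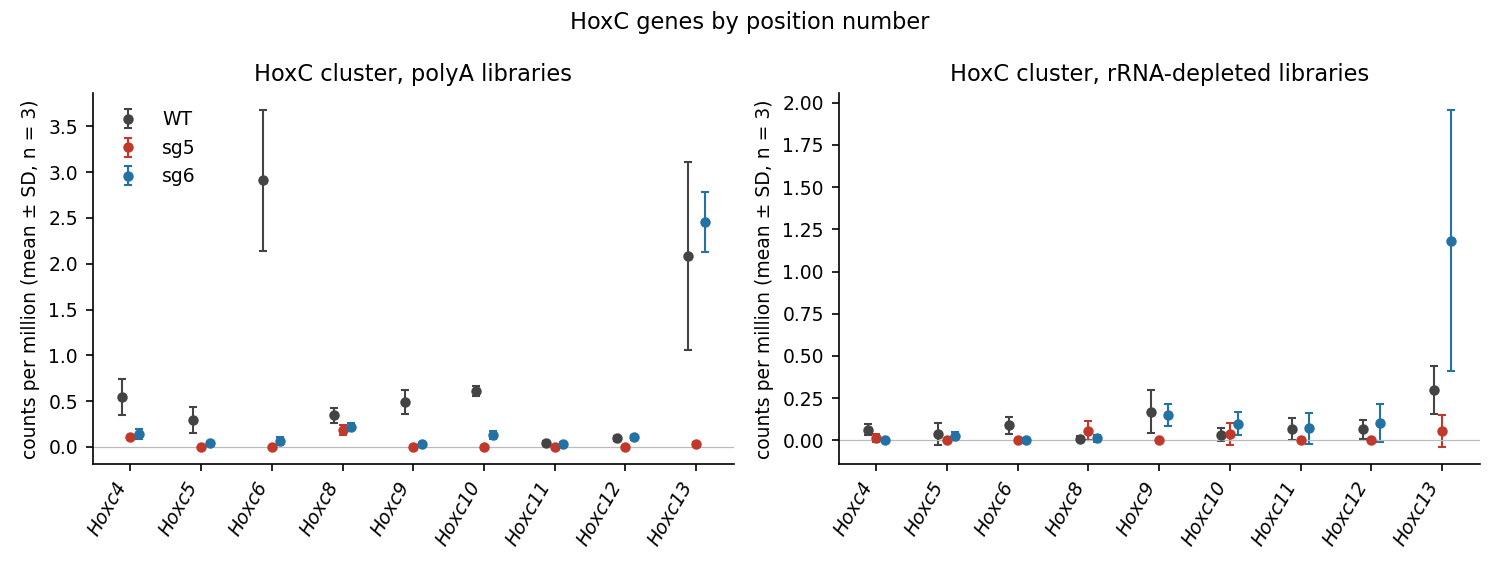
Level of the 9 HoxC genes by position number, in CPM (mean ± SD over 3 libraries), in polyA (left) and rRNA-depleted libraries (right). The panels have different scales. In polyA, *Hoxc13* of sg6 (2.46) sits at the WT level (2.08) while sg5 is at 0.0331, and in the rRNA-depleted libraries *Hoxc13* of sg6 is at 1.18 ± 0.773.

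Summed per kb, paralog group 13 was at 0.852 ± 0.428 CPM per kb in WT, 0.0143 ± 0.00574 in sg5 and 0.998 ± 0.132 in sg6. Group 4, carried by *Hoxa4*, went from 3.01 ± 0.457 to 6.59 ± 0.352 and 6.27 ± 0.263. Group 6 went from 5.10 ± 0.715 to 2.59 ± 0.334 and 2.25 ± 0.266, of which *Hoxa6* alone gave 3.40 in WT, 2.56 in sg5 and 2.22 in sg6. These sums were not tested.

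The rRNA-depleted libraries held fewer counts of these genes and tested 11 of the 39, namely the 9 HoxA genes tested in polyA, *Hoxb3* and *Hoxc13*. The median log2 fold change over these 11 was 0.27 in sg5 and 0.037 in sg6, beside -0.058 and -0.043 over all features tested. Of the 28 others, 11 were at 0 in all 9 libraries, where 0 means under 0.0835 to 0.167 CPM. In sg5, 1 *Hox* gene was called lower (*Hoxb3*; background 1.86% of 56086 genes and transposable element (TE) loci) and 0 higher (background 1.19%; 3 at an unadjusted p below 0.05 in edgeR and 0 by DESeq2). In sg6, 1 was called lower (*Hoxa10*; background 1.61%) and 0 higher (background 0.842%; 1 at an unadjusted p below 0.05 and 0 by DESeq2). Called in both clones were 0 lower (background 1.09%; 1 at an unadjusted p below 0.05, and 1 by DESeq2, *Hoxb3*) and 0 higher (background 0.496%; 0 at an unadjusted p below 0.05 and 0 by DESeq2). Between the clones edgeR called 0 lower (background 0.259%; 1 at an unadjusted p below 0.05, and 1 by DESeq2, *Hoxc13*) and 0 higher (background 0.207%; 2 at an unadjusted p below 0.05 and 0 by DESeq2).

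*Hoxb3* passed the filter on low counts through the WT libraries alone in rRNA-depleted RNA as well. It measured 0.613, 0.737 and 0.696 CPM in WT, and had 0, 0 and 1 counts in sg5 and 4, 0 and 0 in sg6. The sg5 count gave a pooled ratio of 48.0-fold below WT (8.28 to 1926; edgeR adjusted p = 0.0274), and the sg6 log2 fold change was -3.50 ± 0.99 (adjusted p = 0.0916). The sg5 call was lost without WT replicate 1, 2 or 3 or sg5 replicate 1 or 2, and without sg6 replicate 1 *Hoxb3* was called in sg6. *Hoxa10* measured 9.68, 8.70 and 8.80 CPM in WT, 9.08, 7.91 and 7.34 for sg5 and 5.51, 3.20 and 4.21 for sg6. Its log2 fold change of -1.07 ± 0.23 in sg6 (adjusted p = 0.0184) lost its call without WT replicate 1, 2 or 3 or sg6 replicate 2 or 3, and ran from -0.88 to -1.27 over all 9 such fits.

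*Hoxa4* measured 3.55, 2.51 and 2.48 CPM in WT, 4.46, 5.35 and 3.40 for sg5 and 4.61, 3.88 and 3.90 for sg6. Neither the sg5 value, 0.63 ± 0.26 on the log2 scale (adjusted p = 0.23), nor the sg6 value, 0.54 ± 0.26 (adjusted p = 0.416), passed. *Hoxc13* had 8, 11 and 5 counts in WT, 0, 3 and 0 in sg5, and 7, 40 and 40 in sg6, and the 3 counts of sg5 gave a pooled ratio of 27.8-fold between sg6 and sg5 (9.20 to 137). The edgeR test of that difference missed the threshold (adjusted p = 0.0648). Both values lay in the direction seen in polyA without passing the threshold.

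**Figure D5:**
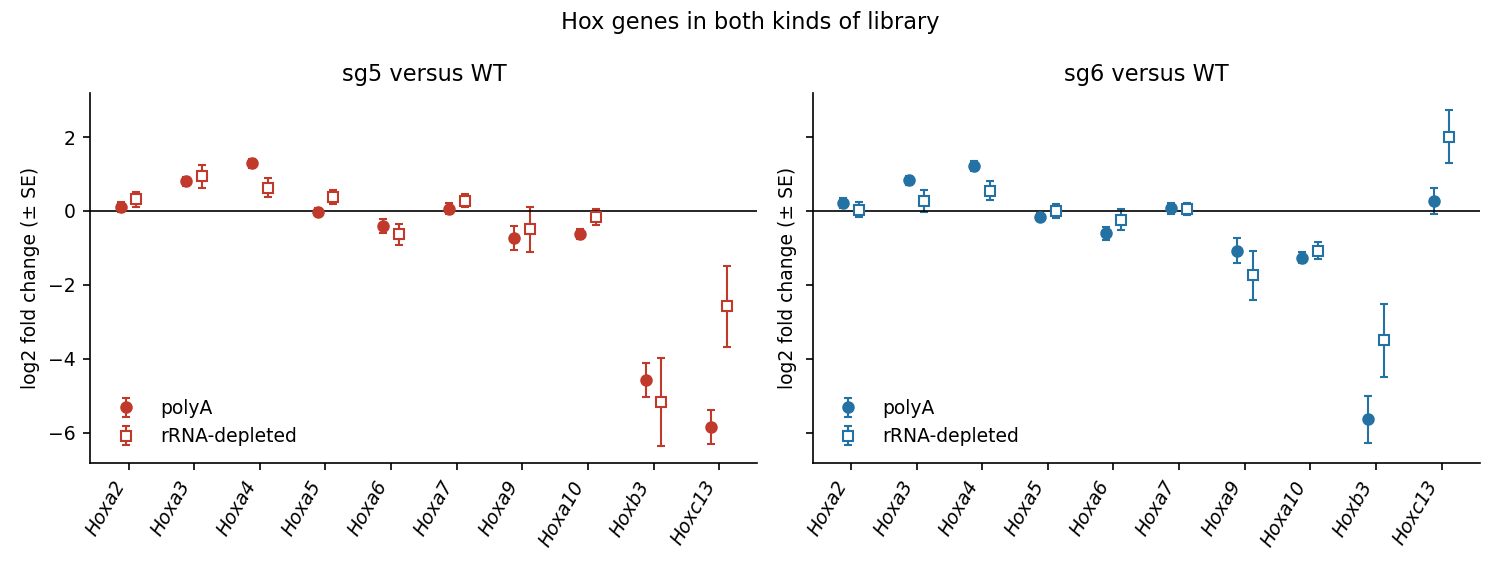
log2 fold change over WT (± SE) of 10 *Hox* genes tested in both kinds of library, for sg5 (left) and sg6 (right), with filled circles for polyA and open squares for rRNA-depleted libraries. *Hoxb3* lies at -3.50 or below in all 4 values, and *Hoxc13* lies below 0 in sg5 and above 0 in sg6.

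Genes below the filter were also counted in the rRNA-depleted libraries. *Hoxb6* had 2, 17 and 11 counts in WT, none in sg5 and 0, 0 and 2 in sg6, and *Hoxc6* had 2, 1 and 5 in WT and none in either clone. *Hoxc9* had 6, 6 and 1 counts in WT, none in sg5 and 2, 4 and 5 in sg6, so sg6 overlapped WT. For *Hoxc10* the clones were not below WT, with 0, 2 and 1 counts in WT, 3, 0 and 0 in sg5 and 1, 2 and 4 in sg6. *Hoxb5* had 3, 0 and 1 counts in WT and none in either clone. *Hoxc4* had 2, 2 and 1 in WT, 1, 0 and 0 in sg5 and none in sg6. *Hoxc5* had 0, 3 and 0 in WT, none in sg5 and 0, 1 and 1 in sg6. For *Hoxb6* the pooled ratio of WT over sg6 was 12.7-fold (exact 95% counting interval 3.23 to 110). Its sg5 level was at least 2.56-fold below WT when set against 3 counts per library. *Hoxb4* had 5, 1 and 11 counts in WT, 3, 0 and 0 in sg5 and 0, 0 and 1 in sg6. Its pooled ratios were 4.61-fold (1.33 to 24.5) and 14.4-fold (2.26 to 603). These intervals cover counting error only. Counts of the other genes named in this paragraph were too low to show a direction. *Hoxd9* had 15 to 133 counts in every polyA library and 0 in all rRNA-depleted libraries.

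Partners and regulators of *Hox* genes were counted from fixed lists, and their calls in polyA stand beside backgrounds of 6.96% of all genes tested called lower in sg5, 7.54% in sg6 and 5.48% in both clones. HOX cofactors of the Pbx, Meis and Prep families bind DNA together with HOX proteins. Of 9 genes, all tested in polyA, *Pbx4* and *Pknox2* were called lower in both clones and none higher by edgeR (3 in sg5 and 1 in sg6 at an unadjusted p below 0.05; 0 by DESeq2), with a median log2 fold change over the 9 of 0.033 in sg5 and -0.032 in sg6. *Pknox2* went from 4.43 ± 0.452 CPM in WT to 0.343 ± 0.163 for sg5 and 0.643 ± 0.220 for sg6 (log2 fold changes -3.69 ± 0.37, adjusted p = 0.000155, and -2.78 ± 0.37, adjusted p = 0.000591), and was also called in the rRNA-depleted libraries at -4.04 and -3.93 (background 1.09% lower in both clones). *Pbx4* went from 1.64 ± 0.580 CPM to 0.706 ± 0.144 and 0.833 ± 0.269 (-1.24 ± 0.32, adjusted p = 0.0201, and -1.01 ± 0.33, adjusted p = 0.0472), with sg6 overlapping WT. It was not called in the rRNA-depleted libraries, where it measured 0.851 ± 0.0878 CPM in WT, 0.841 ± 0.188 for sg5 and 0.842 ± 0.102 for sg6 (-0.036 ± 0.33, adjusted p = 0.975, and -0.022 ± 0.33, adjusted p = 0.99).

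Of 26 Polycomb genes, all tested, edgeR called none in sg5 in polyA (3 higher and 6 lower at an unadjusted p below 0.05; 0 by DESeq2) and *Phf19*, a PRC2 accessory gene, lower in sg6. The median over the 26 was -0.16 in sg5 and -0.14 in sg6. *Phf19* measured 24.9 ± 8.61 CPM in WT, 15.7 ± 4.43 for sg5 (log2 fold change -0.66 ± 0.31, adjusted p = 0.143) and 10.4 ± 2.61 for sg6 (-1.25 ± 0.31, adjusted p = 0.0148), and was called lower in both clones in the rRNA-depleted libraries (-1.81 ± 0.34, adjusted p = 0.00775, and -1.43 ± 0.34, adjusted p = 0.0335). Of 11 Trithorax and H3K27 demethylase genes, edgeR called none in either clone in polyA (2 higher and 1 lower in each at an unadjusted p below 0.05; 0 by DESeq2), and their medians were -0.037 in sg5 and -0.036 in sg6.

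Of the 14 genes that flank the clusters, 13 had a row and 11 were tested in polyA. *Ttll6*, a tubulin glutamylase gene beside HoxB, was called lower in both clones, from 1.45 ± 1.67 CPM in WT to 0.0386 ± 0.0267 for sg5 and 0.0216 ± 0.00928 for sg6, with a WT spread larger than its mean. The filter asked for 0.139 CPM in 3 libraries, which no clone library could have reached at these means, so *Ttll6* was tested through WT alone and a lower level in the clones was built into its testing. No other flanking gene was called in polyA, and the medians over the 11 were -0.20 in sg5 and -0.10 in sg6. Of 17 genes of retinoic acid signalling and the caudal family, 11 were tested, and *Aldh1a1* (log2 fold change -2.01 ± 0.41, adjusted p = 0.00664) and *Cyp26b1* (-1.11 ± 0.17, adjusted p = 0.00151) were called lower in sg5, with medians over the 11 of -0.40 in sg5 and -0.061 in sg6. In the rRNA-depleted libraries *Aldh1a1* was called in sg5 (-3.10 ± 0.70, adjusted p = 0.0237) and *Cyp26b1* was not (-0.33 ± 0.26, adjusted p = 0.582). None of the 11 was called in sg6 in polyA by edgeR, where 1 higher and 2 lower had an unadjusted p below 0.05, or by DESeq2.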

How the data were processed

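RNA of 18 libraries was analysed, 9 polyA-selected and 9 rRNA-depleted. For polyA, the authors ran Rfastp, Salmon (0.8.2 in the submitters' processing notes) on mm10 known genes and tximport, and deposited expected counts per gene, which were rounded to whole numbers. For rRNA-depleted RNA, the authors aligned reads with STAR 2.27.10a and deposited counts per gene and TE locus from TElocal. The strand setting is not given in the sources used here. Totals and floors of 3 counts are in the report, and they cover counting error only.

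Lines were taken from the sample labels; the clone names in the rRNA-depleted titles were matched to the sgRNAs through the polyA titles. Each table was fitted once with edgeR 4.0.16 (R 4.3.3): filterByExpr (minimum count 10, minimum total 15, large group size 10, minimum proportion 0.7), TMM scaling and the quasi-likelihood test over all 9 libraries in 3 groups, with p-values adjusted over all features. Features past a log2 fold change of 1 in either direction and with adjusted p under 0.05 were called, which is the threshold of the study. CPM used the TMM-scaled library sizes, and exonic lengths came from GENCODE vM21. Ratios with 1 to 3 counts in a clone pool its 3 libraries and carry an exact conditional binomial 95% interval.

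The members and lists were chosen with earlier results of these data known. Values of every library were given for *Hox* genes called in both clones or between clones in polyA, with pooled counts where a clone had few. The highest gene per kb of each cluster in WT was also named, with mean and SD alone for *Hoxa2* and *Hoxd9*. *Hoxa3*, *Hoxa9*, *Hoxa10*, *Hoxb1*, *Hoxb4*, *Hoxc8* and *Hoxc12* were named after their values were seen. Alternatives were DESeq2 1.42.0, a replicate block, median-of-ratios scaling, other filters, the 2 groups compared alone, other thresholds, thinning to the smallest library, gene rows alone and leaving out each library. Each fit was tested on simulated data, with changes planted in sg5 alone and only in features above a minimum expected count. Those tests did not cover genes whose mean count lay under that minimum. No 2 libraries of a line held identical values, and counts of each pair differed beyond sampling noise. The flanking gene *Prac1* was not analysed here, and the values of 1 *Hox* gene, which stays in the counts and sums, and some sequences are not reported here.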

Additional observations from a re-analysis of the deposited data

Results flagged for a closer look

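The difference between the 2 clones was tested in the same fit for every *Hox* gene, and 5 genes had an adjusted p below 0.05 in edgeR's quasi-likelihood test in polyA; all 5 were singled out because their change from WT differs between sg5 and sg6. *Hoxc13* was lower in sg5 by a log2 difference of -6.12 (adjusted p = 9.89e-05). *Hoxc10* and *Hoxc6* had 1 count each in sg5, and their pooled ratios of sg6 over sg5 were 70.9-fold (exact 95% counting interval 11.6 to 2915, edgeR adjusted p = 0.000979) and 35.4-fold (5.24 to 1515, edgeR adjusted p = 0.0201). *Hoxc5* had 0 counts in sg5 and at most 3 in any sg6 library, so its edgeR adjusted p of 0.0378 is given with no fold. *Hoxa10* was higher in sg5 by 0.65 (adjusted p = 0.0332), below the fold limit, with every sg5 library above every sg6 library. No *Hox* gene reached an adjusted p below 0.05 between the clones by edgeR in the rRNA-depleted libraries, where 3 had an unadjusted p below 0.05 and DESeq2 called *Hoxc13*. Each clone is a single line, so a difference between sgRNAs cannot be told apart from a difference between clones.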

How the results depend on the processing

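Of the 8 *Hox* genes called lower in both clones in polyA, 6 were called so under all 18 alternative settings, including each left-out library. These were *Hoxb3*, *Hoxb5*, *Hoxb6*, *Hoxc6*, *Hoxc9* and *Hoxc10*. The setting with no fold limit only loosens the threshold of the main fit, so no call could be lost there. *Hoxc4* and *Hoxc5* lost the call with glmTreat and after thinning, where they were no longer tested. The counts of called *Hox* genes in polyA moved by over 1.5 times as follows. Higher in sg5 became 2 with the replicate block, with DESeq2 (both by *Hoxb1*) and with no fold limit, and 0 with glmTreat; higher in sg6 became 3 with no fold limit and 0 with glmTreat. Lower in sg6 became 6 with glmTreat and 7 after thinning. Between the clones, lower in sg5 became 1 with only the 2 groups compared, and 2 with glmTreat or after thinning, and higher became 1 with DESeq2 or no fold limit. Fewer genes were tested after thinning (19) and between the clones alone (15); the cause of the other shifts was not tested.

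In the rRNA-depleted libraries, lower in sg5 became 2 with no filter and 0 with glmTreat. Lower in sg6 became 2 with DESeq2, the stricter filter, only the 2 groups compared or gene rows alone, and 0 with glmTreat. Lower between the clones became 1 with the replicate block, DESeq2 or no filter.

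Leaving out 1 library gave 1 to 2 genes higher and 9 lower in sg5, 1 higher and 9 to 11 lower in sg6, and 0 higher and 2 to 4 lower between the clones in polyA. In the rRNA-depleted libraries it gave 0 to 1 higher and 0 to 1 lower in sg5, 0 higher and 0 to 2 lower in sg6, and 0 higher and 0 to 1 lower between the clones. *Hoxb1* was called higher in sg5 without sg5 replicate 2 or sg6 replicate 1, and *Hoxb4* was not called in sg6 without sg6 replicate 1.

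Signs turned only for values that passed no threshold. After thinning, the difference between the clones in polyA was 0.024 for *Hoxa3* and -0.031 for *Hoxb5*. With gene rows alone *Hoxa2* in sg6 was -0.012 in rRNA-depleted RNA. With 1 library left out, the difference between the clones in polyA ran from -0.15 to 0.075 for *Hoxa3*, from -0.20 to 0.047 for *Hoxa2* and from -0.080 to 1.26 for *Hoxb5* (3 counts in sg6), and *Hoxb1* in sg6 ran from -0.35 to 0.71. In rRNA-depleted RNA the difference between the clones ran from -0.051 to 0.24 for *Hoxa4* and from -3.63 to 1.99 for *Hoxb3* (1 count in sg5), and *Hoxa2* in sg6 ran from -0.18 to 0.25.

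The main fit did not pair the samples by the replicate numbers of the labels. Same-numbered libraries of different lines correlated at 0.03 to 0.43 in polyA and 0.06 to 0.27 in rRNA-depleted RNA. Of these, 7 and 4 of 9 pairs were above 0.1. The mean correlation was 0.26 and 0.12 for like numbers, and -0.13 and -0.060 for unlike numbers, where 2 of 18 pairs were above 0.1 in each. As a hint from the data only, 9 of 9 and 8 of 9 libraries correlated best with their own number. With the replicate block, 9 *Hox* genes were lower in sg5 and 10 in sg6 in polyA, where *Hoxa9* in sg6 fell short of the fold limit (-0.98, edgeR adjusted p = 0.0292) and *Hoxb1* in sg5 passed both limits (1.30, edgeR adjusted p = 0.0239), and *Hoxc13* was called between the clones in rRNA-depleted RNA (-4.52, edgeR adjusted p = 0.0435). In the rRNA-depleted libraries 28 of the 39 genes had too few counts to be tested, whereas polyA libraries thinned to the smallest total, 27544833 counts, still tested 19. An absent call there says little of HoxB, HoxC or HoxD.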
